A study of Mus musculus with 2 samples.

Results

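This account follows 32 genes of the kidney nephron, from podocyte to collecting duct, in ureters of newborn mice that lack Rbpj in the Tbx18 lineage. The genes are a named list. Gene spots of a 2-colour Agilent array were taken as theirs by the gene name in the scanner files, which gave 40 probes on 160 of 157716 gene spots. All 32 genes were on the array, and 24 of them were bright enough to be tested among 21143 genes in all. By segment, the list holds 22 proximal tubule genes, a pair each for the loop of Henle, the distal tubule, the collecting duct and the podocyte, and 2 genes found in several tubule segments (Cdh16 and Fxyd2).

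The Rbpj-cKO group was Tbx18(cre/+);Rbpj(fx/fx), and the control group was Tbx18(+/+);Rbpj(fx/n.d.), where n.d. marks an allele that was not determined. All animals were of the NMRI strain at postnatal day 4, and the tissue was dissected ureter. Cre is expressed from the Tbx18 locus, which is active in the mesenchyme around the ureteric epithelium, so the groups differed in a Tbx18 allele as well as in Rbpj. Array 1 paired 2 RNAs labelled female and array 2 paired 2 labelled male, with the dyes exchanged between the arrays, so n = 2 arrays and sex, dye and replicate cannot be told apart. The sources used here do not say how many animals went into an RNA. The p-values rest only on differences between these 2 arrays, and limma draws the spread of each gene towards that of all genes tested.

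The nephron filters blood in the glomerulus, where podocytes form the filtration slits, and then recovers solutes along its tubule. The proximal tubule takes back phosphate, glucose, amino acids and filtered protein through apical transporters and endocytic receptors, the loop of Henle and the distal tubule reabsorb salt, and the collecting duct sets water content. The ureter only carries the urine that results, and its lining is a urothelium, so most of these genes have their main site of expression outside the tissue named in the labels.

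Checks of the labels came first. The gene targeted in the design, Rbpj, had a log2 ratio of -1.01 ± 0.13 (SD, n = 2) for Rbpj-cKO over control (adjusted p in limma = 0.0873), though whether its probe lies in the deleted part is not known. On array 1 the Rbpj-cKO RNA, labelled female, held the Y-linked transcripts Ddx3y and Eif2s3y at normalized log2 levels of 11.31 and 11.97, against 7.08 and 7.70 in its control RNA, while Xist was well above background in both. That RNA therefore does not match its sex label alone, and every value of array 1 below rests on it. Of the other cell types that a dissected ureter could carry, all 11 adipocyte markers stood lower in Rbpj-cKO on both arrays, beside 29.8% of all genes. The median adipocyte marker was at -2.80 on the first and -1.50 on the second (1 passed the adjusted threshold, Ucp1). Hepatocyte markers stood apart in the control RNA of array 2, since the median of the list was 0.55 on array 1 but -2.65 on array 2. The urothelial markers that define the lining of the ureter were bright in all 4 RNAs, for example Upk1a at 17.10 and 17.00 in Rbpj-cKO and 16.58 and 16.92 in control. Of the spots, 72.2% and 74.0% were well above background in the Rbpj-cKO channels and 73.1% and 71.8% in the control channels, and replicate spots of a member probe (4 each) had a median SD of 0.06 on each array.

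The probes of 3 tested members span more genome than their own length by the mm9 coordinates of the files, so they cross a splice junction, and they are shown as examples of what the array read. Their strand is plus, and each is 60 bases long. The Napsa probe lies at chr7:51840710-51841119, the Ggt1 probe at chr10:75048435-75048670 and the Aqp2 probe at chr15:99412578-99413554.

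Napsa: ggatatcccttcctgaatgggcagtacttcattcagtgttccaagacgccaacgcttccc
Ggt1: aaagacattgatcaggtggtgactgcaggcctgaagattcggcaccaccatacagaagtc
Aqp2: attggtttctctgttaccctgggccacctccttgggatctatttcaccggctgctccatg

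Their mean log2 ratios were 0.64 for Napsa, 0.15 for Ggt1 and 0.00 for Aqp2, where the tested members ran from -0.47 (Slc22a2) to 1.24 (Kap).

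Proximal tubule genes held the largest ratios that both arrays shared. Kap, Lrp2 and Miox were at least 1.5-fold higher in Rbpj-cKO on each array, and 12 of 18 tested proximal genes were higher on both arrays by any amount, against 3 lower on both, beside 31.7% and 29.8% of all genes. The median of the 18 was 0.34 on array 1 and 0.19 on array 2, where the median of all genes tested was -0.01 and 0.01. None of the 24 tested members passed an adjusted p of 0.05 in limma (0 genes), where the share of all genes called was 0.00473%. At an unadjusted p of 0.05 limma took 9 members as higher and 2 as lower, beside 6.98% and 7.02% of all genes. With the trend and robust settings of eBayes, 2 members were called higher, Lrp2 and Kap (adjusted p = 0.0316 each), while calls over all 21143 genes went to 46 higher and 49 lower, against 0 and 1. The smallest adjusted p of a member was between 0.0316 and 0.579 over the settings tried. An exact permutation test of a single value cannot go below 0.5 with 2 arrays. In bulk RNA such as this, a change in the number of cells of a type and a change in RNA per cell cannot be told apart.

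**Figure D1:**
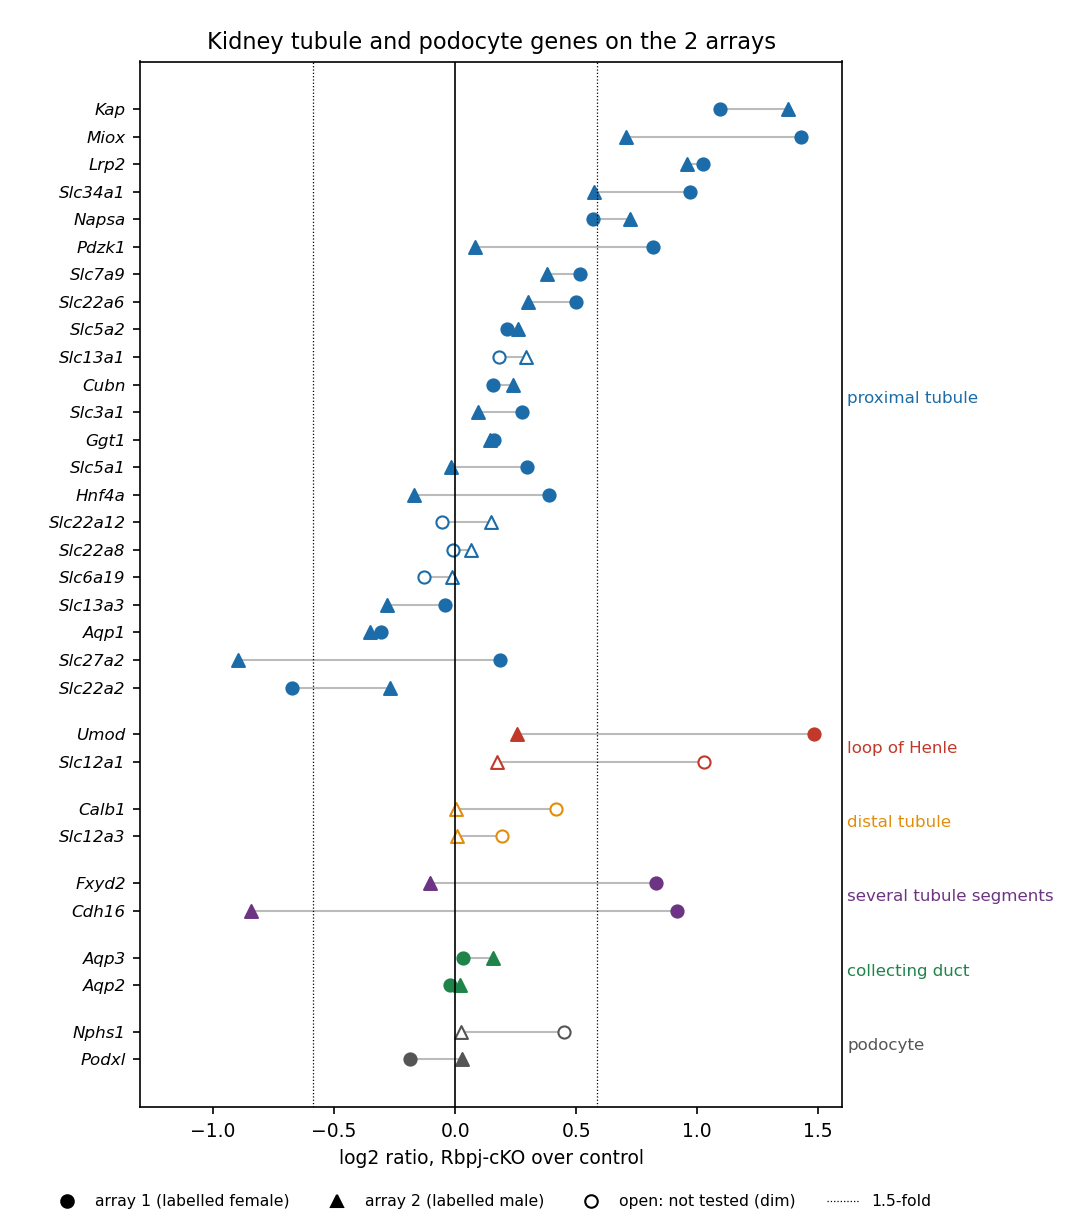
Log2 ratio of Rbpj-cKO over control for the 32 genes, by nephron segment and in order of mean ratio (circles array 1, triangles array 2, open symbols genes too dim to be tested, dotted lines 1.5-fold). Kap, Lrp2 and Miox lie beyond the right dotted line on both arrays, Slc34a1, Pdzk1, Umod, Slc12a1, Fxyd2 and Cdh16 do so on array 1 alone, and Napsa on array 2 alone.

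Kap encodes the kidney androgen-regulated protein, which is made by proximal tubule cells of the mouse. Its normalized log2 level was 9.11 on array 1 and 8.92 on array 2 in Rbpj-cKO, against 8.01 and 7.55 in control. Both Rbpj-cKO RNAs were above both control RNAs, as for 22.3% of all genes, a share that also applies to the genes below. Array 1 gave a log2 ratio of 1.10 and array 2 one of 1.38, and their mean was 1.24 ± 0.20 (SD, n = 2), or 2.36-fold (adjusted p in limma = 0.0837).

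Lrp2 encodes megalin, the endocytic receptor with which the proximal tubule takes up filtered protein. Its level was 9.26 and 8.83 in Rbpj-cKO, against 8.24 and 7.87 in control, again without overlap. The ratio hardly differed between arrays, with 1.03 and 0.96 and a mean of 0.99 ± 0.05 (SD, n = 2), or 1.99-fold (adjusted p in limma = 0.0837). This was the member with the smallest spread among those at least 1.5-fold higher on both arrays. The tested probe lies on chromosome 2 at 69262566-69262625 (mm9), and the 2 other Lrp2 probes were not well above background in any RNA.

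Cubn encodes cubilin, which works beside megalin in the same uptake. Its level was 10.01 and 10.18 in Rbpj-cKO, against 9.85 and 9.94 in control. The groups did not overlap, but the difference was small, with a mean ratio of 0.20 ± 0.06 (SD, n = 2) and 0.21 for a second probe. Amn and Dab2, which anchor and sort this receptor pair, were named after their values were seen and had 0.20 and 0.23. The 2 receptors thus stood at different ratios in the same RNAs, a difference between genes that was not tested.

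Miox encodes the myo-inositol oxygenase of the proximal tubule. It had levels of 10.12 and 9.59 in Rbpj-cKO, against 8.69 and 8.89 in control, which do not overlap. The ratio was 1.43 on array 1 and 0.71 on array 2 (mean 1.07 ± 0.51, SD, n = 2, adjusted p in limma = 0.179). The 2 arrays therefore shared the direction but not the size.

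Slc34a1 encodes the sodium-phosphate cotransporter NaPi-IIa. Its brighter probe read 8.84 and 8.12 in Rbpj-cKO, against 7.87 and 7.55 in control, with ratios of 0.97 and 0.57. A second probe, which was also well above background in all 4 RNAs, gave 0.12 and 0.09. The 2 probes of this gene disagree, and with the mean of all probes of a gene its ratio was 0.44 in place of 0.77.

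Napsa encodes the aspartic protease napsin A, found in the lysosomes of proximal tubule and lung. The level was 8.70 and 8.38 in Rbpj-cKO, against 8.14 and 7.66 in control. Its ratio of 0.57 on array 1 was just under the 1.5-fold mark and that of 0.72 on array 2 was over it (mean 0.64 ± 0.11, SD, n = 2, adjusted p in limma = 0.132).

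**Figure D2:**
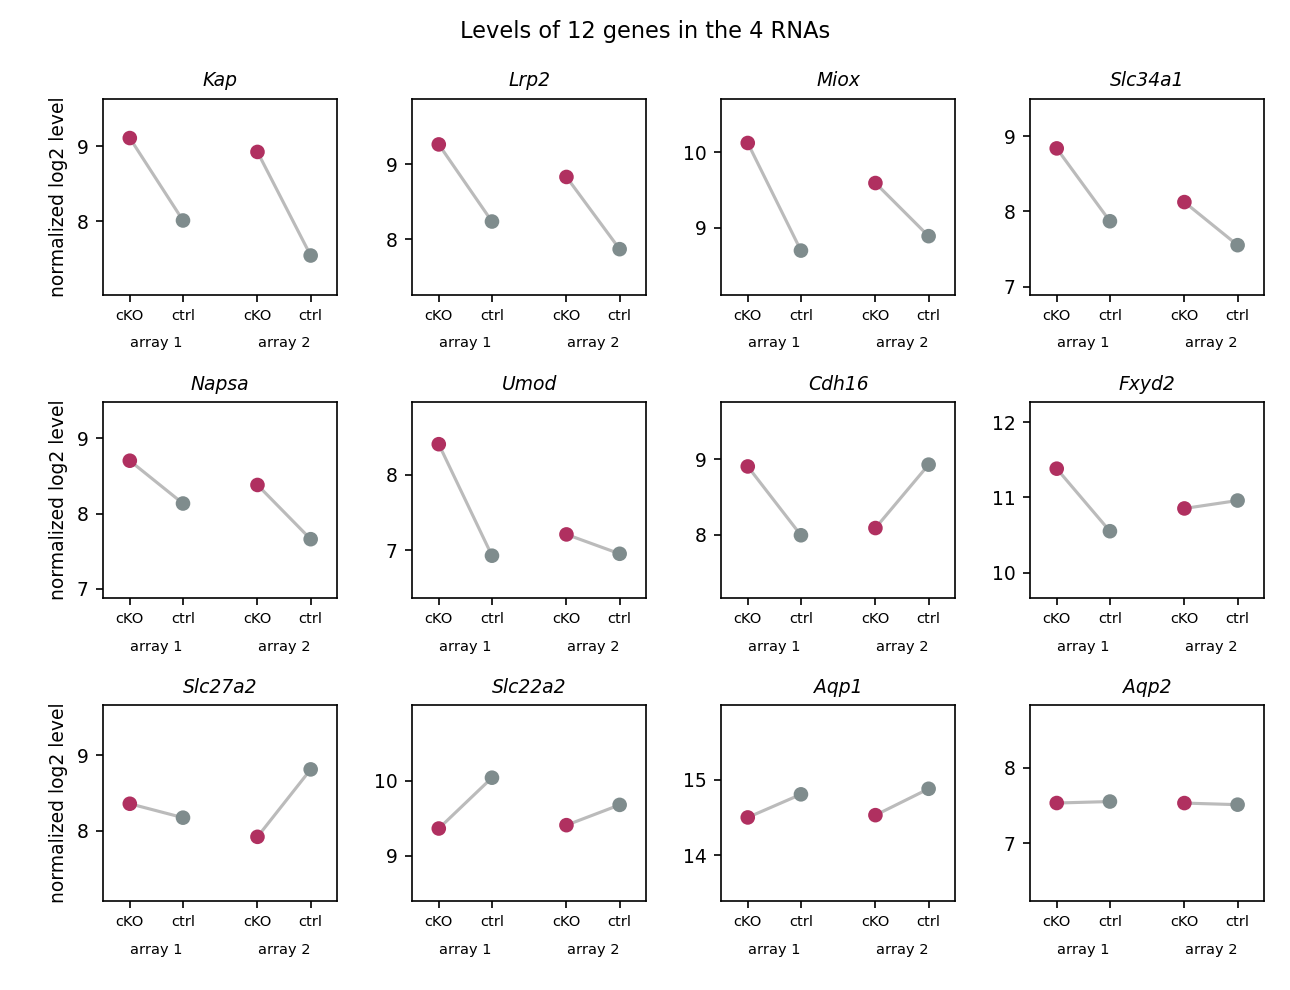
Normalized log2 level of 12 genes in the 4 RNAs, with the Rbpj-cKO RNA (cKO) left of its control (ctrl) within each array and the same number of log2 units on every vertical axis. Kap, Lrp2, Miox, Slc34a1 and Napsa have both Rbpj-cKO points above both control points, as do 22.3% of all genes. Cdh16 changes order between the arrays, and Aqp2 lies between 7.51 and 7.55 in all 4.

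The apical amino acid carriers gave smaller values. Slc7a9, the light subunit of the cystine carrier, had ratios of 0.51 and 0.38, and its partner Slc3a1, the heavy subunit, 0.28 and 0.09. Slc7a9 was well above background in both Rbpj-cKO RNAs but in only 1 of 2 control RNAs, so it entered the test through Rbpj-cKO. Slc6a19, the neutral amino acid carrier, was well above background only in the control RNA of array 1, with levels of 6.57 and 6.45 in Rbpj-cKO and 6.70 and 6.46 in control. Cltrn, the membrane protein that Slc6a19 needs to reach the brush border, is not on the list of 32. It had levels of 9.10 and 8.71 in Rbpj-cKO, against 7.73 and 7.93 in control, and a ratio of 1.07 ± 0.41 (SD, n = 2, adjusted p in limma = 0.147).

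The glucose carriers did not stand out. Slc5a2, which encodes SGLT2 of the early proximal tubule, had 0.21 on array 1 and 0.26 on array 2. Slc5a1, which encodes SGLT1 of its late part and also of the intestine, had 0.30 and -0.02. Ggt1, the gamma-glutamyl transferase of the brush border, had 0.16 and 0.15 and entered the test through Rbpj-cKO, since 1 of 2 control RNAs was well above background.

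The organic ion carriers went both ways. Slc22a6, which encodes the organic anion carrier OAT1, had levels of 7.51 and 7.22 in Rbpj-cKO, against 7.01 and 6.92 in control (ratio 0.40 ± 0.14, SD, n = 2). Slc22a2, which encodes the organic cation carrier OCT2, had 9.36 and 9.41 in Rbpj-cKO, against 10.04 and 9.68 in control (ratio -0.47 ± 0.29, SD, n = 2, adjusted p in limma = 0.261). Both genes had groups that did not overlap, in opposite directions, beside 22.3% of all genes with Rbpj-cKO above and 20.8% with it below. Slc22a8 and Slc22a12, the carriers OAT3 and URAT1, were not well above background in any RNA, with levels between 6.28 and 6.49.

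Aqp1 and Slc22a2 were the only tested members with both Rbpj-cKO RNAs below both control RNAs, beside 20.8% of all genes. Aqp1 encodes the water channel of the proximal tubule and thin limb, which endothelium and red cells also make. Its level was 14.50 and 14.53 in Rbpj-cKO, against 14.81 and 14.88 in control, with ratios of -0.31 and -0.35 (mean -0.33 ± 0.03, SD, n = 2, adjusted p in limma = 0.224). Beside it, 7 of 9 endothelial markers were lower on both arrays, at medians of -0.43 and -0.15. Of 5 tested erythroid markers, 4 were lower on both, with medians of -0.23 and -0.23. The share of all genes lower on both was 29.8%. The part of these markers in the Aqp1 value was not tested. Slc13a3, the dicarboxylate carrier NaDC3, had -0.04 and -0.28, and its sulphate-carrying relative Slc13a1 was not well above background in any RNA.

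For 3 proximal genes the arrays disagreed in sign. Slc27a2, a fatty acid carrier and acyl-CoA synthetase of proximal tubule and liver, had levels of 8.36 and 7.92 in Rbpj-cKO, against 8.17 and 8.81 in control, which gave 0.19 on array 1 and -0.90 on array 2. Hnf4a, a nuclear receptor that governs hepatocyte and proximal tubule genes, had 0.39 and -0.17. In both, the control RNA of array 2 was the highest of the 4. It was also the highest for Cdh16 and Aqp1, and for 21.2% of all genes. In that same RNA Afp stood at 13.15 and Alb at 13.93, where the other control RNA had 9.05 and 9.83. On array 2, 12 of 14 hepatocyte markers were at least 1.5-fold lower, beside 292 of all 21143 genes. The part of these transcripts in the Slc27a2 and Hnf4a values was not tested. Slc5a1, given above, was the third.

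Pdzk1, a scaffold of brush border transporters, was 0.82 on array 1 and 0.08 on array 2. Its second probe gave 0.38 and 0.14, so both probes had the larger ratio on array 1.

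The loop of Henle pair was high in a single RNA. Umod encodes uromodulin, the urinary protein of the thick ascending limb. Its level was 8.41 on array 1 and 7.21 on array 2 in Rbpj-cKO, against 6.92 and 6.95 in control, so the first of these RNAs stood well above the other 3. The ratio was 1.48 on array 1, the largest of any tested member on either array, and 0.26 on array 2 (mean 0.87 ± 0.87, SD, n = 2, adjusted p in limma = 0.337). Slc12a1, the salt cotransporter NKCC2 of the same segment, read 7.48 and 6.50 in Rbpj-cKO, against 6.46 and 6.33 in control. It was well above background only in the Rbpj-cKO RNA of array 1, so it was not tested and no fold is given for the group. With the scanner's own log ratio, Umod was at 1.61 ± 1.41 and Slc7a9 at 1.20 ± 0.15 (SD, n = 2). With the deposited series table, Umod was at 1.35 ± 1.31 and Slc7a9 at 0.33 ± 0.47 (SD, n = 2).

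The distal tubule pair of the list was dim. Slc12a3, the thiazide-sensitive salt cotransporter, was not well above background in any RNA, with levels of 6.56 and 6.28 in Rbpj-cKO and 6.37 and 6.27 in control. Calb1, which encodes the calcium-binding protein calbindin, was measured in the Rbpj-cKO RNA of array 1 alone, with 6.87 and 6.50 in Rbpj-cKO and 6.46 and 6.50 in control. S100g, a smaller calcium-binding protein of the distal tubule and intestine that is not on the list, had ratios of 2.18 on array 1 and -0.14 on array 2. Its levels were 10.69 and 7.63 in Rbpj-cKO, against 8.51 and 7.77 in control.

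Collecting duct genes were level between the groups. Aqp2, the vasopressin-regulated water channel, had 7.53 in each Rbpj-cKO RNA, against 7.55 and 7.51 in control. Its mean ratio of 0.00 ± 0.03 (SD, n = 2) changed sign under 3 alternatives, by at most 0.05. Aqp3, a basolateral water channel that urothelium also makes, had 15.31 and 15.51 in Rbpj-cKO, against 15.28 and 15.35 in control, with a ratio of 0.09 ± 0.09 (SD, n = 2). The median urothelial marker beside it had 0.39 on array 1 and 0.08 on array 2, and their part in the Aqp3 value was not tested.

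The pair found in several tubule segments disagreed between the arrays. Cdh16 encodes the kidney-specific cadherin of tubule epithelia. Its levels were 8.91 and 8.09 in Rbpj-cKO, against 7.99 and 8.93 in control, with ratios of 0.91 and -0.84. It was the only tested member that differed at least 1.5-fold in opposite directions, and its mean of 0.04 ± 1.24 (SD, n = 2) describes neither array. Fxyd2, the gamma subunit of the sodium pump, had 11.38 and 10.85 in Rbpj-cKO, against 10.55 and 10.96 in control, with ratios of 0.83 and -0.11. A second Fxyd2 probe that overlaps the first gave 0.82 and -0.04.

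Of the podocyte pair, Podxl, which encodes podocalyxin of podocytes, endothelium and mesothelium, had -0.19 and 0.03 (adjusted p in limma = 0.775). Nphs1, which encodes nephrin of the filtration slit, was well above background only in the Rbpj-cKO RNA of array 1, with 6.94 and 6.41 in Rbpj-cKO and 6.49 and 6.38 in control.

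**Figure D3:**
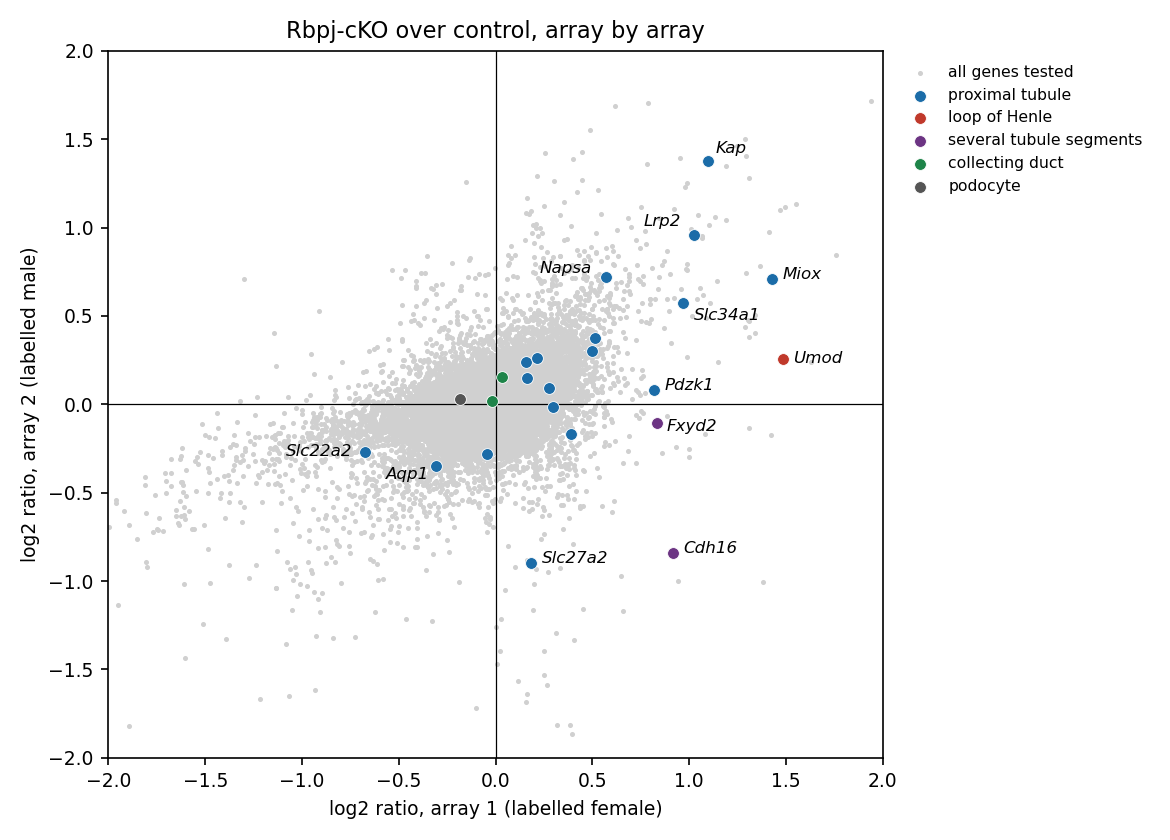
Log2 ratio on array 1 against that on array 2 for the 24 tested members, coloured by segment, over all genes tested in grey (axes end at 2, which leaves out 95 genes). Kap, Lrp2, Miox, Slc34a1 and Napsa lie to the upper right, while Umod, Pdzk1 and Fxyd2 lie along the horizontal axis and Cdh16 and Slc27a2 to the lower right.

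Across the list, the Rbpj-cKO RNA of array 1 was the highest of the 4 RNAs for 12 of 24 tested members and for 16 of all 32, against 22.7% of all genes tested. The Rbpj-cKO RNA of array 2 was highest for 5 of the 24, the control RNA of array 1 for 3 and that of array 2 for 4. Of all genes, 27.1%, 29.0% and 21.2% were highest in these 3 RNAs. The Rbpj-cKO RNA of array 1 is the one whose Y-linked transcripts go against its label. On single arrays 19 of 24 members were higher on array 1 and 16 on array 2, beside 47.9% and 54.1% of all genes. At least 1.5-fold higher were 8 of 24 members on array 1 and 4 of 24 on array 2, beside 0.955% and 1.22% of all genes. On both arrays at once it was 3 of 24, beside 0.402% of all genes, and no member was as much lower on both, beside 0.795%. The 3 became 5 with a smaller background offset, with no background subtraction or with the deposited series table, and 8 with the scanner's log ratio, beside 0.568%, 0.53%, 0.728% and 1.16% of all genes, and 4 with median centring or scaling between arrays. Both Rbpj-cKO RNAs were above both control RNAs for 13 of 24 members and below them for 2, beside 22.3% and 20.8% of all genes. Since the members were chosen as kidney genes with earlier results of these data known, these counts describe the list and test nothing.

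The filter on dim probes bears on these counts. Of the 24 tested members, 22 were well above background in all 4 RNAs, and Slc7a9 and Ggt1 entered through Rbpj-cKO. Among the 22, 12 were higher and 3 lower on both arrays. With no filter, 19 of 32 were higher and 4 lower on both, beside 29.8% and 28.5% of 30010 genes. Between the arrays, the ratios of the 24 members had a Pearson r of 0.49 and a Spearman rho of 0.56, across genes that share the same 4 RNAs. Over all genes tested the Pearson r was 0.45.

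Genes of the same segments outside the list were measured in the same fit. Of 25 other proximal tubule genes, 20 were tested. On both arrays 10 stood higher and 4 lower, beside 31.7% and 29.8% of all genes, shares that also apply to the lists below. The medians of the 20 were 0.16 on array 1 and 0.07 on array 2. None passed in limma (0 genes). At an unadjusted p of 0.05 in limma, 3 were higher and 1 lower, beside 6.98% and 7.02% of all genes. At least 1.5-fold higher on both arrays was 1, Cltrn, beside 0.402% of all genes. The next largest were Slc5a12, a lactate carrier, at 0.41 ± 0.10, Slc16a12 at 0.28 ± 0.31 and Slc4a4, the basolateral bicarbonate cotransporter, at -0.25 ± 0.04 (SD, n = 2 each). Of 10 other podocyte genes, 5 were higher and 3 lower on both arrays, with Clic5 at -0.70 ± 0.25, Cdkn1c at -0.35 ± 0.04 and Nes at -0.28 ± 0.02. Several of these are also expressed outside podocytes, Nes for example in nerve and muscle. Of 12 other collecting duct genes, 9 were tested, and 4 were higher and 2 lower on both. The subunits of the epithelial sodium channel Scnn1b and Scnn1g had 0.35 ± 0.08 and 0.35 ± 0.19. Scnn1a, named as a further subunit of that channel, had 0.09 ± 0.05. Of 7 other loop genes, 4 were tested, with Ptger3 at -0.31 ± 0.30 (SD, n = 2), and of 6 other distal genes 5 were tested, with means between -0.04 and 1.02. No difference between these lists and the 32 genes was tested.

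**Figure D4:**
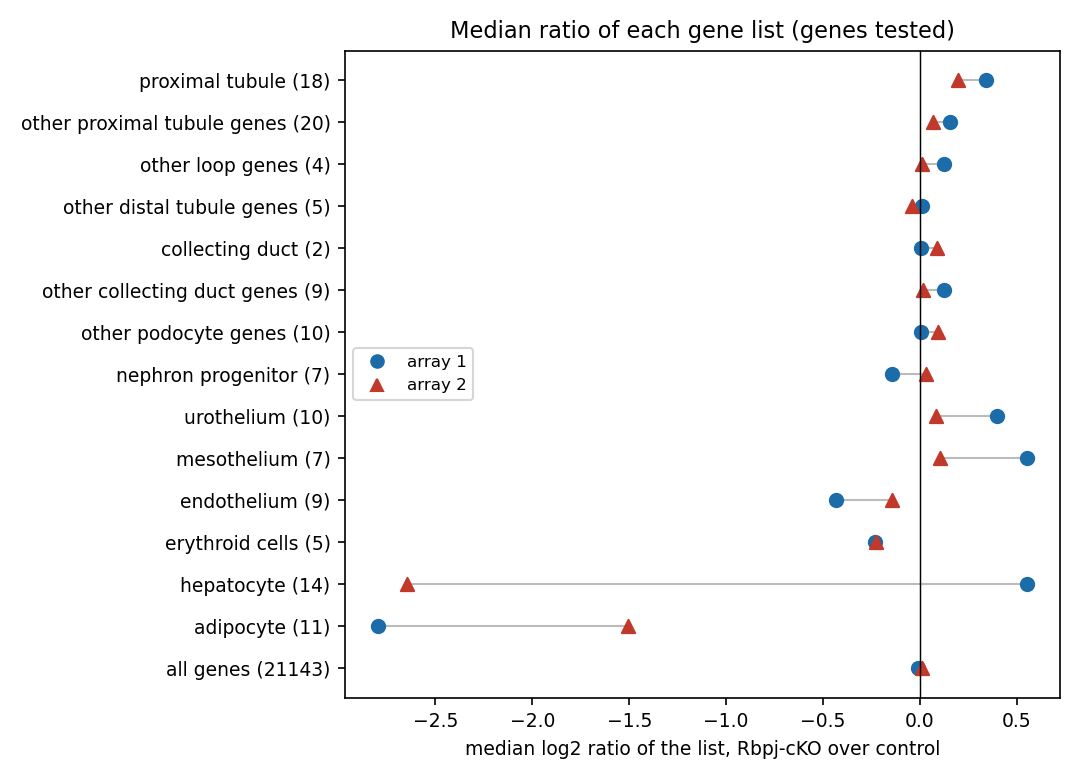
Median log2 ratio of Rbpj-cKO over control per gene list (circles array 1, triangles array 2, number of genes tested in brackets). The proximal tubule members lie at 0.34 and 0.19, the lists of other genes of the same segments lie between -0.04 and 0.16, and hepatocyte and adipocyte markers lie farthest from 0.

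Markers of other cell types that could come with kidney tissue differed too. Of the nephron progenitor genes, Six2 had 1.41 and 0.97, whereas Cited1 had -0.61 and -0.01 and Meox2 -0.46 and -0.22. The list of 7 tested had medians of -0.14 and 0.03. Mesothelial markers were higher on both arrays in 5 of 7, beside 31.7% of all genes, led by Gpm6a at 1.02 ± 0.39 and Lrrn4 at 0.89 ± 0.14 (SD, n = 2). The rest of the 5, named here for their shared lists, were Upk1b and Upk3b, also urothelial markers, and Wt1, also a podocyte gene. The medians of the list, 0.55 and 0.10, were both the value of Upk1b. Msln had 1.00 on array 1 and -0.30 on array 2. The part of the progenitor and mesothelial markers in the values of the kidney genes was not tested.

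Matches to 2 motifs are given for the 250 bases before the start site of these genes, on both strands, in the RefSeq windows of build GRCm38.p6. Windows were found for 25 of the 32 genes, 31 windows in all. The motif CAAAGTCCA, bound by HNF4A, matched in Slc3a1 alone among these, beside 0.451% of 27025 genes, and the motif GTGGGAA, bound by RBPJ, in Slc12a1, Slc13a3 and Slc6a19, beside 6.18%. Shown are the windows of the 3 genes at least 1.5-fold higher on both arrays and of Slc3a1 for its HNF4A match. The match is in capitals, each window ends at the base before the start site, and it reads in the direction of the gene. Lrp2 lies at chr2:69586030-69586279 (minus strand), Kap at chr6:133853668-133853917 (minus), Miox at chr15:89334223-89334472 (plus) and Slc3a1 at chr17:85028097-85028346 (plus).

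Lrp2: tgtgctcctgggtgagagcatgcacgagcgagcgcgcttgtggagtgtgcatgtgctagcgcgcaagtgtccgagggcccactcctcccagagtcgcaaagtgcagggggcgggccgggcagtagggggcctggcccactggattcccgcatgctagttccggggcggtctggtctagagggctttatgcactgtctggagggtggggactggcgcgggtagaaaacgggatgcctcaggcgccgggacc
Kap: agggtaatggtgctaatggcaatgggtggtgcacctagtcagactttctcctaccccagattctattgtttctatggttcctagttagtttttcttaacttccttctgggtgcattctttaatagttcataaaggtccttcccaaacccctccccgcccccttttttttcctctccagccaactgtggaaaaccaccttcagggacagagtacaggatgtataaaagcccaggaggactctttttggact
Miox: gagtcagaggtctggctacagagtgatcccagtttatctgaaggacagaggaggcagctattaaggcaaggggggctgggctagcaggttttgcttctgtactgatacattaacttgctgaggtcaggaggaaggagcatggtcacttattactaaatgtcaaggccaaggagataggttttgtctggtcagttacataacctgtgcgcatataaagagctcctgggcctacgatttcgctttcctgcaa
Slc3a1: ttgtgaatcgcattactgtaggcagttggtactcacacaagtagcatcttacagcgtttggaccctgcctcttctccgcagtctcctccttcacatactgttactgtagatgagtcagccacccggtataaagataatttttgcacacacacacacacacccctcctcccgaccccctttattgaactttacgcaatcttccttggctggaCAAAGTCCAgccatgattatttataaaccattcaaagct

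Lrp2, Kap and Miox, which had the largest shared ratios, held neither motif in these letters. Slc3a1, with its match at -39 from the start site, had ratios of 0.28 and 0.09. A match describes these letters and does not show that a factor binds there.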

How the data were processed

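RNA of 4 ureter samples was measured on 2 two-colour arrays. Spot intensity values were extracted by the authors with Agilent Feature Extraction 10.7.3.1, per the submitters' processing notes. The deposited log10 ratios are red over green, per the file headers. The flags, per the file headers, are other values of 0 or 1. The sources used here do not say how the authors made the deposited series table, a score with a median of 1 on each array and no value between -1 and 1, which was read as a signed fold change. Its log2 values had r = 0.777 and 0.686 with the scanner's log ratios, and 31.8% and 31.6% of its values were exactly 1, for a reason not known. Here, mean signals were corrected with normexp (offset 50) on background medians and loess-normalized within arrays. Outlier-flagged spots (3.34% and 3.12%) were left out, and each ratio was set as Rbpj-cKO over control by the channel labels. The 4 spots of a probe were averaged. Probes with more than 50% of spots well above background on both arrays in either genotype were kept, and the brightest kept probe stood for a gene. RefSeq accessions named 28328 of 39429 probes. Levels per RNA are loess values after Aquantile scaling, and no gene's level was compared with another's. Ratios were tested against 0 with limma 3.58.1 in R 4.3.3, two-sided, with Benjamini-Hochberg adjustment over 21143 genes. Each array pairs an Rbpj-cKO with a control RNA, so the ratio carries the pairing. The fit was checked on simulated data. The members and lists were chosen with earlier results of these data known. Any member could be named. Of each other list the named genes were those past the threshold or up to 4 (kidney lists) or 3 (other cell types) with the largest mean ratio, and the text marks exceptions. Hepatocyte genes named serve as the check of 1 RNA. Some items are not reported here.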

Additional observations from a re-analysis of the deposited data

Results flagged for a closer look

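Cdh16 was at least 1.5-fold higher in Rbpj-cKO on array 1, labelled female, and at least 1.5-fold lower on array 2, labelled male. The log2 ratios of 0.91 and -0.84 differ by 1.76. The difference was not tested, because each sex label has 1 array, and dye orientation changes with it. With 2 arrays per comparison no sample could be judged as an outlier of its group.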

How the results depend on the processing

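Settings varied were the background offset, no background subtraction, the log ratio of the scanner, centring on medians, scaling between arrays, no filter on dim probes, the mean of a gene's probes, outlier-flagged spots kept, 4 channels in a 2-group fit, trend and robust settings, and the deposited series table. Members past the adjusted threshold numbered 0 except with trend and robust settings (2, Kap at 1.24 and Lrp2 at 0.99, of 46 genes called higher and 49 lower in all). The 4-channel fit without the pairing by replicate block also called 0, with a smallest adjusted p of 0.153. Members at least 1.5-fold higher on both arrays numbered 5 with an offset of 16, with no background subtraction and with the deposited table, 8 with the scanner's log ratio, and 4 with centring or scaling, against 3 (0.388% to 1.16% of all genes, against 0.402%). The scanner's log ratio moved the median of all members to 0.39, against 0.19, and that of proximal genes to 0.46, against 0.22, which the deposited table moved to 0.38. With no filter the podocyte median was 0.080, against -0.08, since Nphs1 then entered. With the deposited values, 12 members were higher and 2 lower on both arrays, beside 38.7% and 23.0% of all genes. The smallest adjusted p of a member was 0.0316 to 0.579 over these settings. The cause of the other moves was not tested. The ratio of Aqp2 turned to -0.00032 with an offset of 16, -0.0021 with no background subtraction and -0.048 with flagged spots kept, and that of Cdh16 to -0.0041 with scaling. With replicate 1 or 2 left out, values are those of 1 array with no test, so that members at least 1.5-fold higher numbered 4 and 8, and those lower 2 and 1, with a proximal median of 0.19 and 0.34. Of the results on single genes under the settings that keep both arrays, 258 did not turn or change side (Ggt1 was at exactly 0 with the deposited table), 4 turned and 2 passed the threshold. Dim signal limits 8 of the 32 members, which were not tested.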
